A study of Mus musculus with 6 samples.

Results

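The Ly6 surface antigen family was followed through gene-level arrays of mouse embryonic fibroblasts carrying a hairpin against ARF or a control hairpin. Its 9 members were taken by symbol from the platform's probe-to-gene table: Ly6a, Ly6c1, Ly6c2, Ly6d, Ly6e, Ly6f, Ly6g, Ly6i and Ly6k. Of these, 8 were found, on 8 of the 26851 probesets of the array, and Ly6a was not analysed here. Ly6d, Ly6e, Ly6f, Ly6g, Ly6i and Ly6k had 1 probeset each that names no other gene. Ly6c1 and Ly6c2 are named together on both of the remaining 2 probesets, which are written Ly6c below (probesets 10429568 and 10429573) and cannot tell the 2 genes apart.

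The shARF group held 3 arrays of cells with the hairpin labelled shARF, and the shSCR group held 3 arrays of cells with the hairpin labelled shSCR. A short hairpin RNA lowers the messenger RNA that it matches, and ARF, a tumour suppressor, is encoded by Cdkn2a. Cells of both groups are called dp53R in the series title and Ras in the sample titles, terms that the labels do not explain, and age and strain are not given in the sources used here. The labels name a single construct per group, and they call the replicates biological without saying whether separate cultures or animals were used, so p-values here reflect only how far these samples spread, and that spread may be technical.

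Ly6 proteins are small surface proteins with a disulfide-bonded fold of finger-like loops, most of them held in the membrane by a glycosylphosphatidylinositol (GPI) anchor. Their genes lie in a cluster on mouse chromosome 15 that grew by duplication, so neighbouring members are close in sequence. Several are used to sort cells: Ly6C marks inflammatory monocytes and Ly6G marks neutrophils. Ly6C and Ly6E are known to be induced by interferon in some cell types.

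The promoter windows of the genes named on the probesets that rose are shown with that of Ly6f, a neighbour whose groups overlapped. They show how alike these genes are around their starts and say little of the transcripts that the probes read. RefSeq promoter windows (GRCm38.p6), running from 250 bases before to 50 bases after a gene's start, were at hand for 4 members. They are Ly6c1 at chr15:75048788-75049087 on the minus strand, Ly6c2 at chr15:75111922-75112221 on the minus strand, Ly6g at chr15:75155079-75155378 on the plus strand and Ly6f at chr15:75268171-75268470 on the plus strand. Capitals mark the 168 bases that are identical in all 4 genes after alignment.
Ly6c1: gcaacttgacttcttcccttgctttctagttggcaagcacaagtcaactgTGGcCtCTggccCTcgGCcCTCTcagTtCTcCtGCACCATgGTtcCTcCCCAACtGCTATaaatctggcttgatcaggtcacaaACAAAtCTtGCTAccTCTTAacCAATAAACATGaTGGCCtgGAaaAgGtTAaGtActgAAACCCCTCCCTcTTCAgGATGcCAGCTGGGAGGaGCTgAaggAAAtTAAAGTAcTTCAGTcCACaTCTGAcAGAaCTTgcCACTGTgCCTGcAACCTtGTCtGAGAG
Ly6c2: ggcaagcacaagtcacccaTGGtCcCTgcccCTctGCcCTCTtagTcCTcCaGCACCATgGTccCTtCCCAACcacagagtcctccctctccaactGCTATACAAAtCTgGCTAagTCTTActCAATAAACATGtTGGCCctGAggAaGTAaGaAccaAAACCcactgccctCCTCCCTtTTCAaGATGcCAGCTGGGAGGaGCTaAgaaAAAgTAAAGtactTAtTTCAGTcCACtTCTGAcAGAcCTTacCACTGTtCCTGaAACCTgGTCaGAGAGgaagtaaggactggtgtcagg
Ly6g: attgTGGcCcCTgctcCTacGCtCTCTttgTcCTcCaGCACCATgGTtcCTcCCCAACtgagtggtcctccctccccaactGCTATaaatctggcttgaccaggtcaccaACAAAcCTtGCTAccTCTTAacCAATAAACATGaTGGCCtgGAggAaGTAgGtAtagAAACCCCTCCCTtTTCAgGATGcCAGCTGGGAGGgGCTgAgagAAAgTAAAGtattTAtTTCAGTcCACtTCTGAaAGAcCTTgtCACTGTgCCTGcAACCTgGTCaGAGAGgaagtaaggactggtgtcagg
Ly6f: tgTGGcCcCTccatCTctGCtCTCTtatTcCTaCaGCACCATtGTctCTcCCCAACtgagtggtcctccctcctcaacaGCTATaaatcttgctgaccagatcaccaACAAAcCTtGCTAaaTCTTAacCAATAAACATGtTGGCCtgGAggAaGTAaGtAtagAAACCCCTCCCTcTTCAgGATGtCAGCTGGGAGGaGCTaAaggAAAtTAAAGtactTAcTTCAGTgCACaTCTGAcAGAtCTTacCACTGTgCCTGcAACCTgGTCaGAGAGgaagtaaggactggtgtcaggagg
Between pairs of these windows 78.2% to 88.6% of aligned bases were identical, lowest between Ly6c1 and Ly6c2 and highest between Ly6f and Ly6g. The interferon-stimulated response element, searched on both strands as GAAA, any 2 bases and GAAA, was in 0 of the 7 windows of these 4 genes and in 3.44% of all 32851 windows. The interferon-gamma-activated site, searched as TTCNNNGAA on both strands, was in 0 of the 7 and in 8.3% of all windows. These searches say only that the letters are not in these windows.

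Cdkn2a, which the shARF hairpin targets, was lower in the shARF arrays. Its probeset (10514340) gave signals of 315, 254 and 286 on the shARF arrays, against 535, 539 and 516 on the shSCR arrays. Its log2 difference was -0.90 ± 0.086 (SE; limma, adjusted p = 0.00459). Which transcripts of Cdkn2a this probeset reads was not checked, so it may not measure ARF alone. The signal is the authors' normalized intensity on a linear scale, with array medians from 41.97 to 42.86. A value was taken as above background where it exceeded the detection level, the 25th percentile of its array, which lay between 14.1 and 14.9. All 12 markers of embryonic fibroblasts were above it on all 6 arrays. A probeset was tested if it passed the level on at least 3 arrays, as 20310 did, among them 7 of the 8 Ly6 probesets.

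The Ly6c probesets and Ly6g rose in shARF cells, while Ly6e, Ly6f, Ly6d and Ly6k did not pass the test and Ly6i was below the detection level. In limma at an adjusted p under 0.05, 3 of the 7 tested Ly6 probesets were higher and 0 lower, where 1.63% of all tested probesets were higher and 2% lower. The 2 Ly6c probesets among these name the same genes and do not count as separate members. Counting only probesets with 1 symbol, 1 member (Ly6g) was called. The members were chosen with earlier results of these data known, so the comparison with all probesets is not independent evidence. The rises were 3.06-fold and 2.77-fold for the 2 Ly6c probesets and 2.58-fold for Ly6g.

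**Figure D1:**
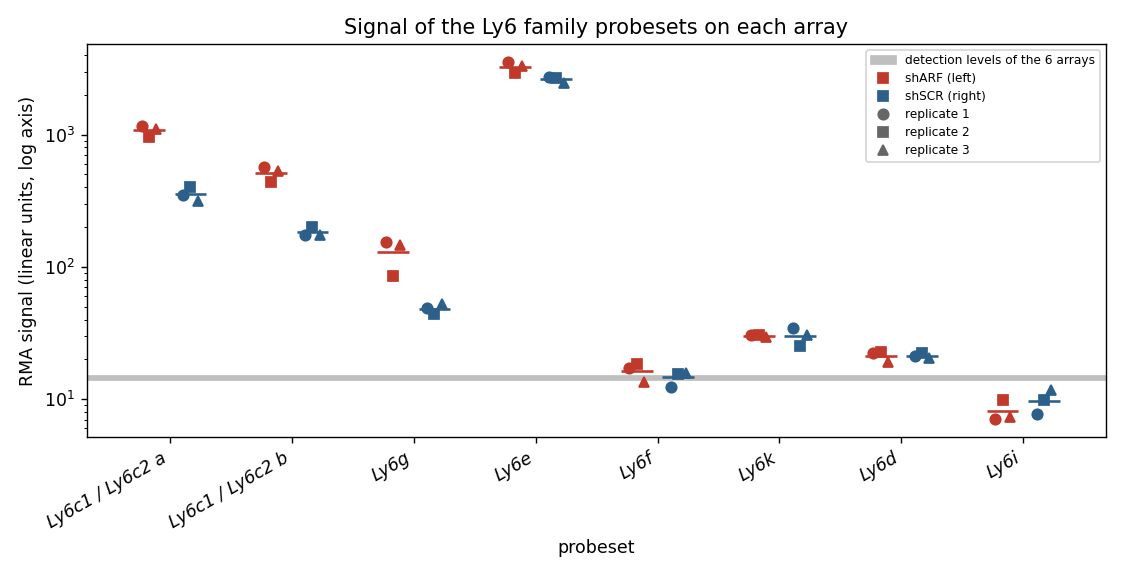
Signal on each array (linear units on a log axis) for the 8 Ly6 family probesets, shARF left and shSCR right, with symbols for the replicates and a line at each group's mean. Ly6c a is probeset 10429568 and Ly6c b is probeset 10429573. The grey band spans the detection levels of the arrays, and the shARF values of Ly6c, Ly6g and Ly6e all lie above their shSCR values.

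Ly6c1 and Ly6c2 encode the Ly6C antigen of monocytes and of some lymphocytes and endothelial cells. The first Ly6c probeset, 10429568, gave 1172, 968 and 1113 on the shARF arrays, against 350.1, 399 and 316 on the shSCR arrays. The groups lay far apart, with the lowest shARF array well above the highest shSCR array.

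The mean was 1084 ± 105 (SD, n = 3) in shARF and 355 ± 41.5 in shSCR, a log2 difference of 1.61 ± 0.108 (SE; limma, adjusted p = 0.00156). This probeset had the 13th smallest p and the 25th largest rise of all tested probesets.

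The other Ly6c probeset, 10429573, gave 566, 438 and 533 on the shARF arrays, against 176, 202 and 175 on the shSCR arrays. Again the groups did not overlap, and shARF replicate 2 was the lowest of its group on both probesets. Its mean was 512 ± 66.8 (SD, n = 3) in shARF and 184 ± 15.1 in shSCR, a log2 difference of 1.47 ± 0.11 (SE; limma, adjusted p = 0.00225).

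Both calls held without any 1 array, with adjusted p in limma from 0.00191 to 0.0135 for the first and from 0.00435 to 0.0178 for the other. The platform annotation lists both genes for both probesets, so which of Ly6c1 and Ly6c2 rose, or whether both did, cannot be told apart. A rise of transcript in each cell and a larger share of cells with the transcript cannot be told apart in these bulk samples either.

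Ly6g encodes the surface antigen that identifies mouse neutrophils. Its probeset (10424683) gave 155, 84.9 and 146 on the shARF arrays, against 48.7, 44.2 and 52.0 on the shSCR arrays. All shARF arrays were higher, and shARF replicate 2 stood well below the other shARF arrays.

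The mean was 129 ± 38.1 (SD, n = 3) in shARF and 48.3 ± 3.93 in shSCR, a log2 difference of 1.37 ± 0.218 (SE; limma, adjusted p = 0.0216). The call held without shARF replicate 2 and was lost on leaving out any 1 of the other 5 arrays, with adjusted p in limma from 0.0609 to 0.0776 and log2 differences from 1.21 to 1.42. The probeset names Ly6g alone in the annotation. Whether it also reads transcripts of its close relatives was not tested, and its value as a measure of Ly6g is uncertain.

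Of the 24 markers of the leukocytes that Ly6C and Ly6G are used to sort, 13 were below the detection level on all 6 arrays. In limma 0 were called, where 4.01% of all tested genes were, so 0 in a list this short says little. The detection level is a low percentile of each array, and 20310 of all 26851 probesets passed it on at least 3 arrays. Passing it therefore does not establish that a marker is expressed. Of 12 neutrophil markers 6 were above the level on at least 3 arrays. The summed signal of the 12 was 187 to 195 in shARF and 179.6 to 196 in shSCR. Ltf, Cxcr2, Ngp, Csf3r, Retnlg and Mmp8 did not exceed the detection level on any array, and Mmp9, the brightest of the list, gave 37.2 to 49.0 in shARF and 36.4 to 46.7 in shSCR. S100a8 gave 15.7 to 16.9 in shARF and 17.5 to 18.6 in shSCR, while S100a9 gave 16.1 to 16.6 in shARF and 15.3 to 15.6 in shSCR, so these partners lay in opposite directions without overlap, and neither passed (limma, adjusted p = 0.277 and 0.429).

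Of 12 markers of monocytes and macrophages 5 passed on at least 3 arrays, with summed signals of 257 to 283 in shARF and 252 to 284 in shSCR. Ptprc, the pan-leukocyte gene, was below the detection level on all 6 arrays, as were Adgre1, Csf1r, Itgam, Lyz2, Ccr2 and Mpeg1. Cd14 was above the array medians, at 75.9 to 91.3 in shARF and 65.8 to 84.1 in shSCR, and Cx3cr1 gave 30.5 to 35.8 in shARF and 28.5 to 35.0 in shSCR. Cd68 gave 40.1 to 51.4 in shARF and 57.3 to 63.0 in shSCR (limma, adjusted p = 0.109), and Tyrobp gave 24.1 to 25.4 in shARF and 21.3 to 23.0 in shSCR (limma, adjusted p = 0.166). In limma 0 of the 11 tested markers of these lists were called, where 4.01% of all tested genes were. Without adjustment (p under 0.05) the monocyte list had 1 higher and 1 lower and the neutrophil list 0. The share of all tested genes under that unadjusted threshold was not counted, so no excess or lack can be read from such counts. Ly6e, with an unadjusted p of 0.0096 in limma, had only the 1699th smallest p of the 20310 tested probesets. At least 1699 tested probesets were therefore under 0.05 without adjustment. The endothelial list, with 8 of 10 markers above the level on at least 3 arrays, summed to 212 to 224 in shARF and 216 to 244 in shSCR. Within it Cdh5 differed by 0.32 and Esam by -0.38 on the log2 scale (limma, adjusted p = 0.0997 and 0.106). The lymphocyte list, with 5 of 10 measured markers above the level on at least 3 arrays, summed to 142 to 159 in shARF and 143 to 146 in shSCR. In limma 0 markers of either list were called, where 4.01% of all tested genes were, so 0 in lists this short says little. Without adjustment (p under 0.05) the endothelial list had 1 higher and 1 lower and the lymphocyte list 1 higher (Cd8a) and 0 lower.

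Ly6e encodes a widely expressed member that is known to affect virus entry and, in mice, to serve as a receptor in placental cell fusion. Its probeset gave 3545, 2927 and 3293 on the shARF arrays, against 2749, 2679 and 2447 on the shSCR arrays. The groups did not overlap, but the gap between the lowest shARF and the highest shSCR array was smaller than the spread within shARF.

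The mean was 3255 ± 311 (SD, n = 3) in shARF and 2625 ± 159 in shSCR, a log2 difference of 0.31 ± 0.088 (SE; 95% interval 0.10 to 0.51), which did not pass (limma, adjusted p = 0.115). With limma's trend and robust prior it passed (adjusted p = 0.0159), and over the alternatives tried its adjusted p ran between 0.0159 and 0.265. All shARF arrays lay above all shSCR arrays for 4 of the 7 tested Ly6 probesets, and for 13.5% of all tested probesets. Of the 4, 2 are the Ly6c probesets, which name the same genes.

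Ly6f, Ly6k and Ly6d were low, and their groups overlapped. Ly6f, a member whose function is little described, gave 17.2, 18.5 and 13.4 on the shARF arrays, against 12.4, 15.5 and 15.9 on the shSCR arrays. It passed the detection level on 2 arrays of each group, and its log2 difference was 0.16 (95% interval -0.18 to 0.50; limma, adjusted p = 0.565).

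Ly6k, which in mice is needed for sperm to reach the egg, gave 30.4, 30.7 and 29.4 on the shARF arrays, against 34.3, 25.1 and 30.3 on the shSCR arrays. The shARF values lay inside the shSCR range, with a log2 difference of 0.03 (95% interval -0.24 to 0.29; limma, adjusted p = 0.922).

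Ly6d, a marker of stratified epithelium and of early B lineage cells, gave 22.2, 22.7 and 19.0 on the shARF arrays, against 21.2, 22.3 and 20.5 on the shSCR arrays. Its log2 difference was 0.00 (95% interval -0.20 to 0.19; limma, adjusted p = 0.982). The intervals of Ly6e, Ly6f, Ly6k and Ly6d all end below the change of Ly6c and Ly6g. Changes of dim probesets, however, come out smaller on such arrays. Ly6i gave 7.09, 9.84 and 7.28 on the shARF arrays, against 7.77, 9.78 and 11.7 on the shSCR arrays. It was below the detection level on all 6 arrays, so it was not tested and no fold is given.

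**Figure D2:**
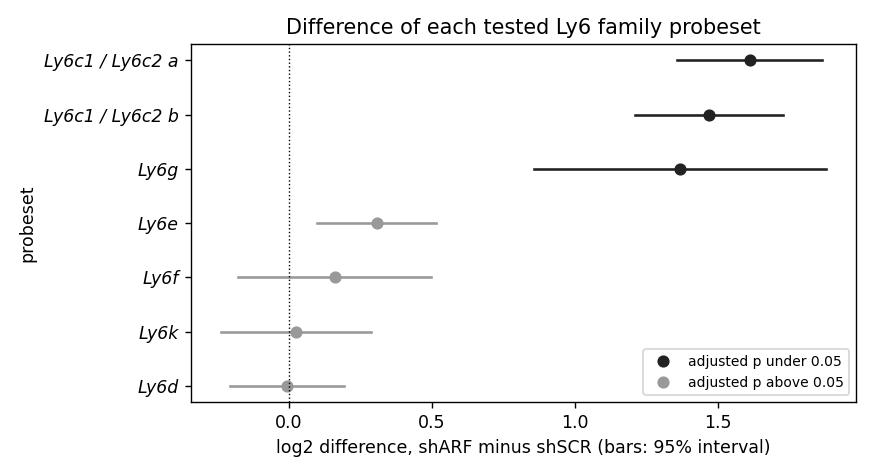
Log2 difference (shARF minus shSCR) of the 7 tested Ly6 family probesets with its 95% interval from limma; dark points passed at an adjusted p under 0.05. The 2 Ly6c probesets and Ly6g lie between 1.37 and 1.61, and the other 4 between 0.00 and 0.31.

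The members' changes were also compared with each other, as the log2 ratio of 2 probesets on each array. In 13 of the 21 pairs of tested Ly6 probesets the ratios of the shARF arrays did not overlap those of the shSCR arrays. Each of these gave p = 0.1 in a two-sided exact permutation test, the smallest that 3 against 3 arrays allow, and an adjusted p of 0.162 over the 21 pairs, so no pair can pass. Most of the 13 set a called probeset against one that was not called, so their count largely restates the calls. The pairs share 7 probesets and are not independent, and the share among pairs of all probesets was not counted. The change of Ly6e was 1.31 smaller on the log2 scale than that of the first Ly6c probeset (difference -1.31) and 1.06 smaller than that of Ly6g (difference -1.06), without overlap. The change of Ly6g differed from that of the first Ly6c probeset by -0.24 (two-sided exact permutation test, p = 0.4) and from that of the other by -0.10 (p = 0.5), with overlap in both. The Ly6c probesets themselves differed by 0.14 in their change, without overlap.

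The tested neighbours of the Ly6 members on chromosome 15 did not pass the test. None of them lies between Ly6e and Ly6f, the stretch that holds Ly6c1, Ly6c2 and Ly6g. Genes directly beside the risen members were therefore not tested. In the order of the RefSeq gene table the cluster runs Ly6d, Ly6k, Ly6e, Ly6i, Ly6a, Ly6c1, Ly6c2, Ly6g and Ly6f, with other genes between them. Taking 10 genes on either side gives 39 neighbours, of which 18 had a single-gene probeset and 12 were tested. In limma 0 of the 12 were called, where 4.01% of all 15145 tested genes were, and without adjustment (p under 0.05) there were 2 higher and 0 lower. The share of all genes under that unadjusted threshold was not counted, but at least 1699 of the 20310 tested probesets were under it. The 2 cannot be read as an excess. The median log2 difference of the 12 was 0.03, and that of all tested genes was -0.01.

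Lynx1, which encodes a modulator of nicotinic acetylcholine receptors, differed by 0.23 (limma, adjusted p = 0.127). Slurp1, a secreted keratinocyte protein, differed by 0.21 (limma, adjusted p = 0.212), Gpihbp1, which carries lipoprotein lipase across endothelium, by 0.12 (limma, adjusted p = 0.394), and 4933427E11Rik by 0.14 (limma, adjusted p = 0.321). Ly6a2 lies between Ly6c2 and Ly6g, and Ly6g2 between Ly6g and Ly6f. Ly6a2 gave 15.8, 13.03 and 12.7 on the shARF arrays, against 13.1, 13.1 and 13.2 on the shSCR arrays. Ly6g2 gave 7.41, 8.28 and 6.79 on the shARF arrays, against 6.66, 8.09 and 6.97 on the shSCR arrays. Neither was tested, since both were below the detection level on most arrays, while the probesets of the genes beside them, Ly6c and Ly6g, rose.

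**Figure D3:**
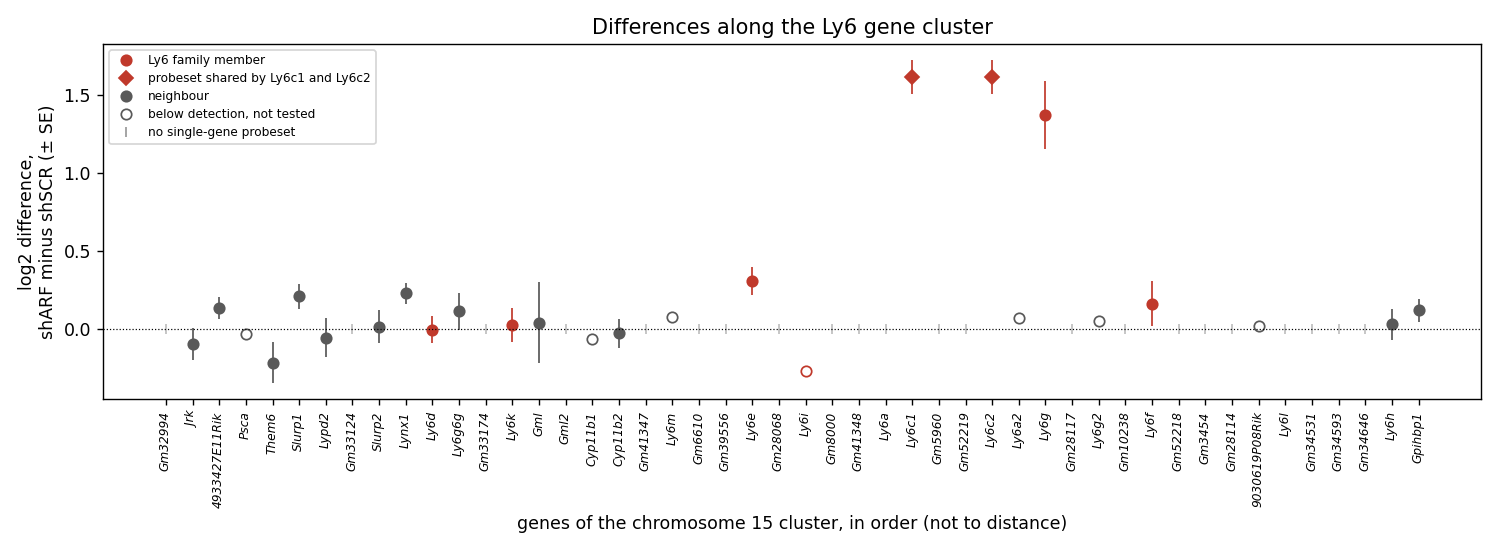
Log2 difference (shARF minus shSCR, bars are SE) of the genes of the chromosome 15 cluster in their order, with members in red and neighbours in grey; open points were not tested, and ticks at 0 have no single-gene probeset. Diamonds stand for probeset 10429568, which Ly6c1 and Ly6c2 share. The points of Ly6c1, Ly6c2 and Ly6g stand above 1, and all others below 0.5.

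The wider LY6/uPAR superfamily, whose proteins share this fold, held no other gene that passed the test. Of 53 genes of the superfamily other than the members, 35 were tested and limma called 0, which is near the 4.01% of all tested genes that were called. Without adjustment (p under 0.05) there were 6 higher and 5 lower. The share of all genes under that unadjusted threshold was not counted, but at least 1699 of the 20310 tested probesets were under it. These counts cannot be read as an excess. The median log2 difference of the 35 was 0.00. Cd59a, an inhibitor of the complement attack complex, averaged 51.6 ± 7.11 (SD, n = 3) in shARF and 77.3 ± 15.2 in shSCR (limma, adjusted p = 0.107). Plaur, the urokinase receptor, averaged 518 ± 57.5 in shARF and 628 ± 11.1 in shSCR (limma, adjusted p = 0.133). Bambi, a decoy receptor of the TGF-beta family, averaged 140.4 ± 3.79 in shARF and 169 ± 16.9 in shSCR (limma, adjusted p = 0.14). Cd59a and Plaur were called lower with limma's trend and robust prior (adjusted p = 0.0361 and 0.0368).

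Genes of the GPI anchor pathway, which attaches Ly6 proteins to the membrane, mostly did not pass. Of 33 tested genes that make, attach or remodel the anchor 1 rose and 1 fell, or 6.06%, where 4.01% of all tested genes were called. Tmed10, a cargo receptor that takes anchored proteins out of the endoplasmic reticulum, averaged 2056 ± 41.8 (SD, n = 3) in shARF and 1504 ± 50.9 in shSCR, a rise of 0.45 ± 0.058 (SE) on the log2 scale (limma, adjusted p = 0.011). Pgap1, which removes an acyl chain from the anchor, averaged 53.2 ± 10.1 in shARF and 101 ± 3.19 in shSCR and fell by 0.94 ± 0.137 on the log2 scale (limma, adjusted p = 0.0158).

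Neither gene was called without shSCR replicate 1 or 3, and 1 of them without shSCR replicate 2. Gpaa1, of the complex that attaches the anchor, differed by -0.17 (limma, adjusted p = 0.196), and Mppe1, which trims it, by 0.23 (limma, adjusted p = 0.26).

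Of 36 tested genes of other GPI-anchored surface proteins, 2 rose and 1 fell, or 8.33%, where 1.62% of all tested genes rose and 2.38% fell, and their median log2 difference was -0.06. Bst2, the interferon-induced protein tetherin, averaged 1131 ± 405 (SD, n = 3) in shARF and 317 ± 162 in shSCR, a 3.72-fold rise (limma, adjusted p = 0.0385), and is also on the list of interferon-stimulated genes. Gpc1, a heparan sulfate proteoglycan, rose 1.34-fold (limma, adjusted p = 0.0477), and Cd55, which speeds the decay of complement convertases, averaged 54.9 ± 7.9 in shARF and 92.8 ± 7.85 in shSCR, a 1.70-fold fall (limma, adjusted p = 0.0173). Cdh13, a cadherin with a GPI anchor, differed by -0.24 (limma, adjusted p = 0.0594). Gpc1 was not called under the replicate block or with no filter, and under the block Efna3 was called lower in its place. Bst2 was not called with no filter either. On leaving out 1 array, Bst2 was called only without shSCR replicate 2 and Gpc1 only without shARF replicate 3. Cd55 was then called only without shARF replicate 1 or shSCR replicate 2. The count of 3 was 0 without shSCR replicate 1, shSCR replicate 3 or shARF replicate 2, and 1 without shARF replicate 1 or 3.

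Interferon-stimulated genes rose in the same arrays. Of 52 tested genes of this list, which excludes the Ly6 members, 46 rose and 0 fell, where 1.62% of all tested genes rose and 2.38% fell. Its median log2 difference was 1.19 (range 0.06 to 3.21), and that of all tested genes was -0.01. The list was chosen with the results known and is not independent evidence of its direction. Its count was 23 without shSCR replicate 1 and 24 without shSCR replicate 3. The changes of Ly6c (1.61 and 1.47) and Ly6g (1.37) lay above the list median and that of Ly6e (0.31) below it. The 4 genes of smallest p were Ifit3b and Ifit3, of the IFIT family of antiviral RNA-binding proteins, with log2 rises of 2.39 and 2.64 (limma, adjusted p = 0.00154 for both), and the GTPase genes Gbp7, with a log2 rise of 1.95 (limma, adjusted p = 0.00225), and Iigp1 (limma, adjusted p = 0.0032). Iigp1 was below the detection level on all 3 shSCR arrays and was at least 2.37-fold higher in shARF, with a mean of 33.8 in shARF set against that level. Probes of the IFIT and GBP genes can read near-identical relatives, so their single values are uncertain.

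Within the shARF group Ly6c, Ly6g and Ly6e ordered the arrays differently from the median of the interferon-stimulated genes, though not from every gene of that list. As log2 signal minus the shSCR mean, the first Ly6c probeset measured 1.73, 1.45 and 1.66 on shARF replicates 1, 2 and 3, against -0.01, 0.17 and -0.16 on shSCR replicates 1, 2 and 3. Ly6g measured 1.68, 0.82 and 1.60 on shARF replicates 1, 2 and 3, against 0.02, -0.13 and 0.11 on shSCR replicates 1, 2 and 3. The median of the interferon-stimulated genes was 1.18, 1.32 and 1.09 on shARF replicates 1, 2 and 3, against -0.10, 0.22 and -0.10 on shSCR replicates 1, 2 and 3. So shARF replicate 2 was the lowest shARF array for both Ly6c probesets, Ly6g and Ly6e, and the highest for the list median. The dim Ly6f, Ly6d and Ly6k were highest on replicate 2 and lowest on replicate 3 of the shARF arrays, the order of the list median, and Ly6i was highest on replicate 2 too. These orders carry little weight at such low signal. Ly6k measured 0.04, 0.05 and -0.01 on shARF replicates 1, 2 and 3, where the median SD between replicates was 0.10. Ly6i was below the detection level on all 6 arrays.

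Of the 52 listed genes, 32 were highest among the shARF arrays on shARF replicate 2 and 13 were lowest on it. Those 13 had the same lowest shARF array as both Ly6c probesets, Ly6g and Ly6e. In the shSCR group 43 of the 52 were highest on replicate 2, where both Ly6c probesets were highest too. Whether this order comes from the cells or from the arrays was not tested. The groups were also compared without replicate 2 of both, a setting chosen after seeing the data. The log2 differences were then 1.78 and 1.65 for the Ly6c probesets, 1.58 for Ly6g and 0.40 for Ly6e. In limma the adjusted p was 0.00566 for Ly6c and Ly6g and 0.155 for Ly6e. Since shARF replicate 2 was the lowest shARF array for these probesets, leaving it out raised their shARF means by construction. These values therefore add no support.

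**Figure D4:**
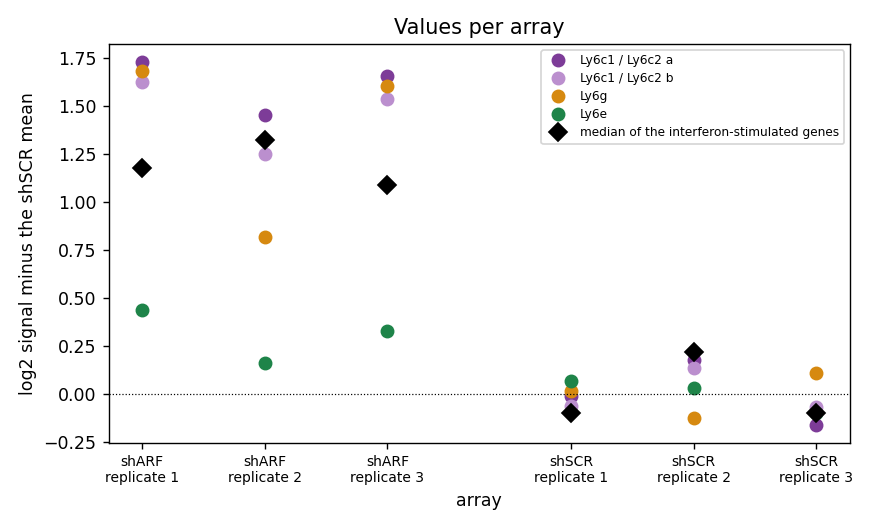
Log2 signal minus the shSCR mean on each array for both Ly6c probesets, Ly6g, Ly6e and, as black diamonds, the median of 52 interferon-stimulated genes. On shARF replicate 2 these Ly6 points are the lowest of their group, at 0.82 for Ly6g, and the diamond, at 1.32, is the highest of its group.

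Genes with the most similar values over the 6 arrays were found by the root mean square difference of log2 signal minus the shSCR mean, over 15140 genes that are not members. For the first Ly6c probeset they were Ifih1, the RNA sensor MDA5 (0.147), Ddx60, a helicase (0.152), Gbp3, a guanylate-binding protein (0.192), and Parp9, an ADP-ribosyltransferase (0.195), of which Ifih1, Gbp3 and Parp9 are on the interferon-stimulated list. For Ly6g they were Nefl, a neurofilament chain (0.155), Lum, a collagen-binding proteoglycan (0.182), Rsad2, the antiviral enzyme viperin (0.205), and Tcim (0.206), of which Rsad2 is on that list. All 8 rose in limma, with adjusted p from 0.00225 to 0.0276. This likeness rests mainly on the difference between the groups, which all these genes share.

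Of the 9 tested epithelial markers 2 rose and 0 fell, where 1.62% of all tested genes rose and 2.38% fell. Without adjustment (p under 0.05) there were 4 higher and 1 lower. The share of all genes under that threshold was not counted, but at least 1699 of the 20310 tested probesets were under it. No excess can be read from these counts. The summed signal of the 10 markers of squamous and simple epithelium, 9 of them above the detection level on at least 3 arrays, was 637 to 775 in shARF and 549 to 577 in shSCR, and Cdh1 was below the level on all 6 arrays. Krt18, a simple-epithelium keratin, averaged 250.2 ± 63.8 (SD, n = 3) in shARF and 129 ± 11.03 in shSCR (limma, adjusted p = 0.037), and Dsp, a desmosome protein, averaged 52.6 ± 4.85 in shARF and 31.6 ± 2.32 in shSCR (limma, adjusted p = 0.00971). Krt8 gave 78.9 to 119 in shARF and 49.4 to 65.2 in shSCR, without overlap (limma, adjusted p = 0.0583). Krt8 was called higher with the offset, the replicate block and the trend and robust prior. Krt5 differed by 0.27 on the log2 scale (limma, adjusted p = 0.124). Of the 9 tested markers 6 had a positive log2 difference. Krt19 lay the other way, at 178 to 199 in shARF and 209 to 230 in shSCR (limma, adjusted p = 0.17). Cldn4 and Trp63 differed by -0.23 and -0.12 on the log2 scale (limma, adjusted p = 0.439 and 0.548). Dsp was called without any 1 array, while Krt18 lost its call on leaving out any array but shARF replicate 2. The part of these markers in the Ly6 results was not tested, and Ly6d, the member of stratified epithelium, had overlapping groups.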

How the data were processed

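Total RNA of trypsinised fibroblasts was amplified to biotinylated cDNA and hybridised to Affymetrix gene-level arrays (labels' protocols). Each deposited value is a linear intensity of 1 probeset that the authors normalized with RMA in Affymetrix Expression Console, using core probesets, per the series design text and the submitters' processing notes; tool versions and a genome build are not given in the sources used here. RMA gives all arrays nearly 1 distribution and makes folds of dim genes smaller. The number of arrays limits the precision.

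The values were turned to log2 here. Of 26851 probesets, 21056 carried 1 gene symbol in the platform annotation, 1450 several and 4345 none; 0 symbols changed on matching to RefSeq (GRCm38.p6), which was used for names, gene order and promoter windows. For the array no build is given, so coordinates are printed only for the RefSeq windows. Probesets above the 25th percentile of their array on at least 3 of 6 arrays were tested (20310), with limma 3.58.1 in R 4.3.3, two-sided, Benjamini-Hochberg over all tested, threshold 0.05; 737 were called. A gene was represented by its single-symbol probeset of highest mean (15145 genes). The script was tested on simulated data. Promoters were aligned with MAFFT 7.526 and Biopython 1.88, using for each gene the window most like those of the other genes.

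The members and lists were chosen with earlier results of these data known. The genes named were all members and Cdkn2a, up to 4 tested genes of smallest p in each list, and the 4 genes most like each called member, with Ly6c1 and Ly6c2 taken as 1; Ly6a2, Ly6g2, Efna3 and the markers of other cell types were named after their values were seen. Alternatives were other filters, an offset of 16, other normalizations, another prior, a replicate block and leaving out arrays. The authors' SAM test was not used here.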

Additional observations from a re-analysis of the deposited data

How the results depend on the processing

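Of the 7 tested Ly6 probesets 3 were called under every filter, scale and normalization tried, 4 with the trend and robust prior (Ly6e joined, log2 difference 0.31), and 2 to 3 on leaving out 1 array. Both Ly6c probesets were called in every setting, with log2 differences from 1.53 to 1.70 for probeset 10429568 and from 1.39 to 1.58 for probeset 10429573 on leaving out 1 array. Ly6g ranged from 1.21 to 1.64 and lost its call without any of 5 arrays, which leaves fewer samples. Counting only probesets with 1 symbol, 1 member (Ly6g) was called, with a range of 0 to 1 on leaving out 1 array, 2 with the trend and robust prior, and 3 if probesets with several symbols are counted. Directions that turned were those of members near 0: Ly6k was -0.11 without replicate 2 of both groups and -0.10 to 0.13 on leaving out 1 array, and Ly6d was -0.054 to 0.077.

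The whole-array count of 737 was 1161 with the offset, 454 with no filter, 1609 with the trend and robust prior, 187 without replicate 2 of both groups and 184 to 397 on leaving out 1 array. With the replicate block it was 418. The labels do not say whether same-numbered arrays belong together. Deviations of same-numbered arrays correlated at 0.08, 0.05 and 0.00 (across probesets) and those of other combinations at -0.14 to 0.09. Among these shARF replicate 2 correlated best with shSCR replicate 3. Such weak correlations do not settle whether the arrays are paired. The block changed no call of a Ly6 probeset, but Gpc1 lost its call and Efna3 gained one. Interferon-stimulated genes called were 23 to 42 on leaving out 1 array. The superfamily count of 0 was 2 with the trend and robust prior. The GPI anchor count of 2 was 1 without replicate 2 of both groups and 0 to 2 on leaving out 1 array. The count of 3 other GPI-anchored proteins was 7 with the offset and with the trend and robust prior, 1 with no filter and without replicate 2 of both groups, and 0 to 2 on leaving out 1 array. The causes were not tested. Cdkn2a ranged from -0.98 to -0.82 on leaving out 1 array. Dim members (Ly6d, Ly6f, Ly6k) have little signal over background, so small changes in them were not detectable here.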
